A study of Mus musculus with 11 samples.

Results

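Glucose uptake and the enzymes that split glucose were followed through 10 genes: Slc2a1, Hk1, Hk2, Hk3, Pfkl, Pfkp, Pgk1, Ldha, Ldhb and Pdk1. A probe set, the group of oligonucleotides on the array that reads a transcript, was taken for a gene where the platform annotation paired it with that symbol and no other. By this rule 9 of the 10 genes had probe sets, 20 in all, and Hk3, a further hexokinase, was not analysed here. They are 9 of 12393 genes named in this way on the array. Of the 20 probe sets, 18 were bright enough to be tested, at least 1 for each of the 9 genes, and 9055 genes of the array had a tested probe set.

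The tissue was adventitia, the connective sheath around an artery, from the abdominal aorta of 78-week-old male mice kept on normal chow. It was cut with a laser from frozen sections and read on 1 Affymetrix array per sample. The 4 ATLO arrays came from mice of the strain B6.129P2-Apoe<tm1Unc>/J, which lack apolipoprotein E (Apoe) and develop atherosclerosis, and held adventitia of the lesion area with an artery tertiary lymphoid organ (ATLO), an aggregate of lymphocytes beside the plaque. The 4 outside-lesion arrays came from adventitia away from lesions in the same strain; the labels place it outside the lesion area, and the design text speaks of mice without lesions. The 3 wild-type arrays came from adventitia of mice whose strain is labelled C57BL. The labels do not say which arrays came from separate animals, so p-values reflect variation between samples that could be technical alone. Each Apoe-deficient sample pooled 200 sections of 10 µm, and its RNA was purified with an RNeasy Micro kit and transcribed in vitro for 68 h. Wild-type RNA came from an RNeasy Lipid Tissue kit and was transcribed for 24 h, and the wild-type titles carry a code, PNS, that they do not spell out. In both comparisons with wild type, genotype and this handling therefore cannot be told apart.

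Glucose enters cells through transporters of the SLC2 family and is trapped by hexokinases, which phosphorylate it. Phosphofructokinase commits the sugar to glycolysis, phosphoglycerate kinase makes ATP further down, and lactate dehydrogenase interconverts pyruvate and lactate. Pyruvate dehydrogenase kinases hold pyruvate out of the mitochondrial citrate cycle. Slc2a1, Hk2, Pgk1, Ldha and Pdk1 are known targets of the hypoxia-inducible factor HIF-1, whose binding element has the core RCGTG. Activated lymphocytes and macrophages are known for high glycolysis, and brown fat, which surrounds the aorta of mice in places, for high glucose uptake.

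To show what the promoters of genes that moved in opposite directions hold, 5 windows are printed, each from 250 bases before to 50 bases after a RefSeq transcription start (build GRCm38.p6), 5′ to 3′ on the gene's strand. Capitals mark every match to ACGTG, the A form of the HIF core, on either strand (CACGT when read on the printed strand). The windows lie at chr4:119108495-119108794 on the + strand for Slc2a1, chr6:82774405-82774704 on the - strand for Hk2, chrX:106186850-106187149 on the + strand for Pgk1, chr7:46845554-46845853 on the + strand for the first of the Ldha starts, and chr6:142507908-142508207 on the - strand for Ldhb.
Slc2a1: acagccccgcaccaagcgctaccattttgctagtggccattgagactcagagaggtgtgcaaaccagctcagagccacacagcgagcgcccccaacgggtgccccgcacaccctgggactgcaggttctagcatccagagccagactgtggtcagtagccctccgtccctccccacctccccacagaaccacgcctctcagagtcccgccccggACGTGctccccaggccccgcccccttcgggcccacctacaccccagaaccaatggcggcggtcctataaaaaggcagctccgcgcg
Hk2: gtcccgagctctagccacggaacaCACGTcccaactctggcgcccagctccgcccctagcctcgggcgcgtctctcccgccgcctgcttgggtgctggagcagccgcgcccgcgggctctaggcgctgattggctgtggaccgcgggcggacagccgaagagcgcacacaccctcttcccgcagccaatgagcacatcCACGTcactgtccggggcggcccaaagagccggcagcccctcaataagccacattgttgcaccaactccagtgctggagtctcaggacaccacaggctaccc
Pgk1: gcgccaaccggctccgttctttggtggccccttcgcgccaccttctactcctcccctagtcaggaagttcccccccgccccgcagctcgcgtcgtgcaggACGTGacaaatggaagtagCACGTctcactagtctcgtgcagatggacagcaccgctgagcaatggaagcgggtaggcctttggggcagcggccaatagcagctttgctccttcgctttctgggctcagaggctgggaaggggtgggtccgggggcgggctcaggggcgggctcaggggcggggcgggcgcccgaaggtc
Ldha: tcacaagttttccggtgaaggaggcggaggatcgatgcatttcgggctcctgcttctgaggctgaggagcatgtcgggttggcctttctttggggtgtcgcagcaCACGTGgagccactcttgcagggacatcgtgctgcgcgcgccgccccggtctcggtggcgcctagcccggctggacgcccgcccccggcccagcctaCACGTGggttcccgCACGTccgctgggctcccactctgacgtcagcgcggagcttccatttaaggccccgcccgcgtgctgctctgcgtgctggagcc
Ldhb: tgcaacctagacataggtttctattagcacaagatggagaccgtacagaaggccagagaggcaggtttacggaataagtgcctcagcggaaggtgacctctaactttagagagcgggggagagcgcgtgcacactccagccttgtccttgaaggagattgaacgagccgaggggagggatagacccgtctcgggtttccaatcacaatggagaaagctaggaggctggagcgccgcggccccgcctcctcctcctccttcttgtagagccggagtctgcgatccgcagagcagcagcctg
The Slc2a1 window held 1 match, 36 bases before the start. The Hk2 window held 2, at 226 and 52 bases before the start, and the Pgk1 window held 2, at 150 and 131 bases. The Ldha window held 3 stretches, 2 of them the palindrome CACGTG, which reads as ACGTG on both strands and is also an E-box of the kind that Myc binds. No ACGTG lay in the Ldhb window, nor in those of Pfkl, Pfkp and Pdk1. RefSeq windows matched all 10 genes (13 windows, as Hk1, Ldha and Pdk1 have 2 each), and 6 of the 13 held ACGTG, against 19.6% of the 32851 windows of all genes. Among these 6 was the window of Hk3, whose expression was not analysed here. CACGTG stood in 1 of the 13 and in 7.15% of all windows, and the G form of the core, GCGTG on either strand, in 8 of the 13 and in 32.4%. The second Ldha window held no ACGTG. The first Hk1 window held none, and the second held 2, both after the start. Described next, Slc2a1 rose, Hk2, Pgk1 and Ldha fell and Hk1 was not called. Whether the motif bears on these changes was not tested. A match of letters is not evidence of binding.

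In ATLO arrays the transporter Slc2a1 was higher than in outside-lesion adventitia, while Hk2, Pfkl, Pgk1, Ldha, Ldhb and Pdk1 were lower, and Hk1 and Pfkp did not pass the test. With each gene read by its brightest tested probe set, 1 of 9 genes was called higher and 6 lower. Among all 9055 genes of the array 19.8% were called higher and 14.9% lower. A call means an adjusted p under 0.05 in limma with Benjamini-Hochberg adjustment over all 14988 tested probe sets. The median log2 change of the 9 genes was -1.12, and that of all genes 0.11. Over the 18 tested probe sets 3 were called higher and 13 lower, against 17.9% and 13.9% of all probe sets. The 4 ATLO arrays all lay above the 4 outside-lesion arrays for 1 gene and all below them for 4, where 30.4% of all probe sets did not overlap in either direction. Against wild type the picture was alike in count, with 1 gene higher and 6 lower (13.4% and 14.0% of all genes), a median of -0.90 against -0.05 for all genes, and no overlap for 6 of 9 genes against 38.1% of all probe sets. At the level of probe sets 1 of 18 was called higher and 12 lower than in wild type, against 13.4% in each direction. Without wild-type replicate 2 only Ldha and Ldhb of the 6 genes called lower than in wild type were still called, and Pfkp was called in addition. Without a filter on dim probe sets Ldha and Ldhb alone were called lower. Both comparisons use the same ATLO arrays, so they are not independent of each other. Between outside-lesion and wild-type arrays limma called 0 of the 9 genes, with 2 at an unadjusted p under 0.05, where 1.40% of all genes were called higher and 1.68% lower. It called 0 of the 18 probe sets, with 4 at an unadjusted p under 0.05, against 3.26% of all probe sets in either direction. The arrays of 1 gene, Ldha, did not overlap, against 21.5% of all probe sets.

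**Figure D1:**
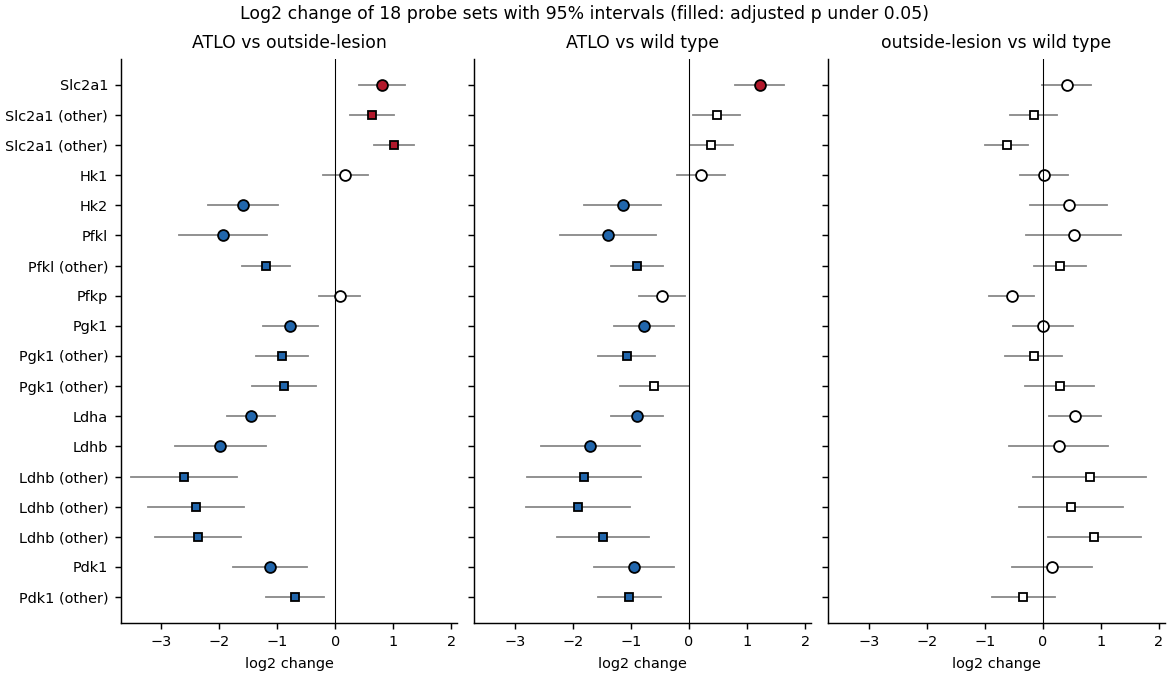
Log2 changes of the 18 tested probe sets in the 3 comparisons, with 95% intervals as bars; circles are the brightest probe set of a gene, squares the others, and filled marks are called by limma. Slc2a1 lies right of 0 and Ldhb, Pfkl, Hk2 and Ldha left of it in both comparisons of ATLO arrays, and no change of outside-lesion against wild-type arrays is called.

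Slc2a1 encodes GLUT1, the basal glucose transporter of many cell types and of activated lymphocytes. Its brightest probe set (1434773_a_at) had signals of 1494, 1251, 1049.7 and 1227 in ATLO arrays, 656, 655, 709 and 856 in outside-lesion arrays, and 698, 557 and 397 in wild-type arrays. All 4 ATLO arrays lay above all 7 others. The means were 1255 ± 183 (SD, n = 4), 719 ± 94.8 (n = 4) and 551 ± 151 (n = 3). The log2 change was 0.80 ± 0.18 (SE) against outside-lesion arrays (1.74-fold, limma adjusted p = 0.00453) and 1.22 ± 0.20 against wild type (2.32-fold, adjusted p = 9.06e-04). The other 2 probe sets rose against outside-lesion arrays too, by 0.63 (1426599_a_at, adjusted p = 0.0143) and 1.005 (1426600_at, adjusted p = 3.51e-04). Against wild type these 2 were not called, at 0.47 (adjusted p = 0.0811) and 0.38 (adjusted p = 0.116), although all ATLO arrays lay above the wild-type arrays in both. The 3 probe sets also differed in sign between outside-lesion and wild-type arrays, at 0.41, -0.16 and -0.62, none of them called. With RNA integrity as a covariate (the actin control's 3′ to 5′ ratio) the rise over outside-lesion arrays was 0.71 and no longer called (adjusted p = 0.0607). The actin ratio was 4.61 ± 2.71 in ATLO, 8.71 ± 2.83 in outside-lesion and 4.98 ± 0.683 in wild-type arrays. The same ratio of the Gapdh control did not order the groups alike, at 1.93 ± 0.886, 1.74 ± 0.426 and 1.20 ± 0.103, and was not used as a covariate.

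Hk2 was called lower in ATLO arrays, and Hk1 was not called. Hk1, the housekeeping form bound to mitochondria, had signals of 1097.5, 968, 1127 and 1032 in ATLO arrays, 1172, 909, 751 and 958.5 in outside-lesion arrays and 1224, 735 and 861.5 in wild-type arrays. The groups overlapped throughout. Its log2 change was 0.17 against outside-lesion arrays (95% interval -0.21 to 0.55, adjusted p = 0.498) and 0.20 against wild type (-0.21 to 0.61, adjusted p = 0.467). A second Hk1 probe set was too dim to be tested. Hk2, the inducible form of muscle, fat and activated cells, had signals of 945, 683, 950.4 and 916 in ATLO arrays, 2290.5, 1513, 4836 and 2776 in outside-lesion arrays and 1462.5, 2144 and 2246 in wild-type arrays. Every ATLO array lay below every other array. Hk2 was 3.02-fold lower in ATLO than in outside-lesion arrays (log2 change -1.59 ± 0.28, adjusted p = 8.35e-04) and 2.21-fold lower than in wild type (-1.15 ± 0.31, adjusted p = 0.0146). The second of these calls was lost without a filter on dim probe sets (adjusted p = 0.0551), without wild-type replicate 2 (0.0523) and without wild-type replicate 3 (0.0611).

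**Figure D2:**
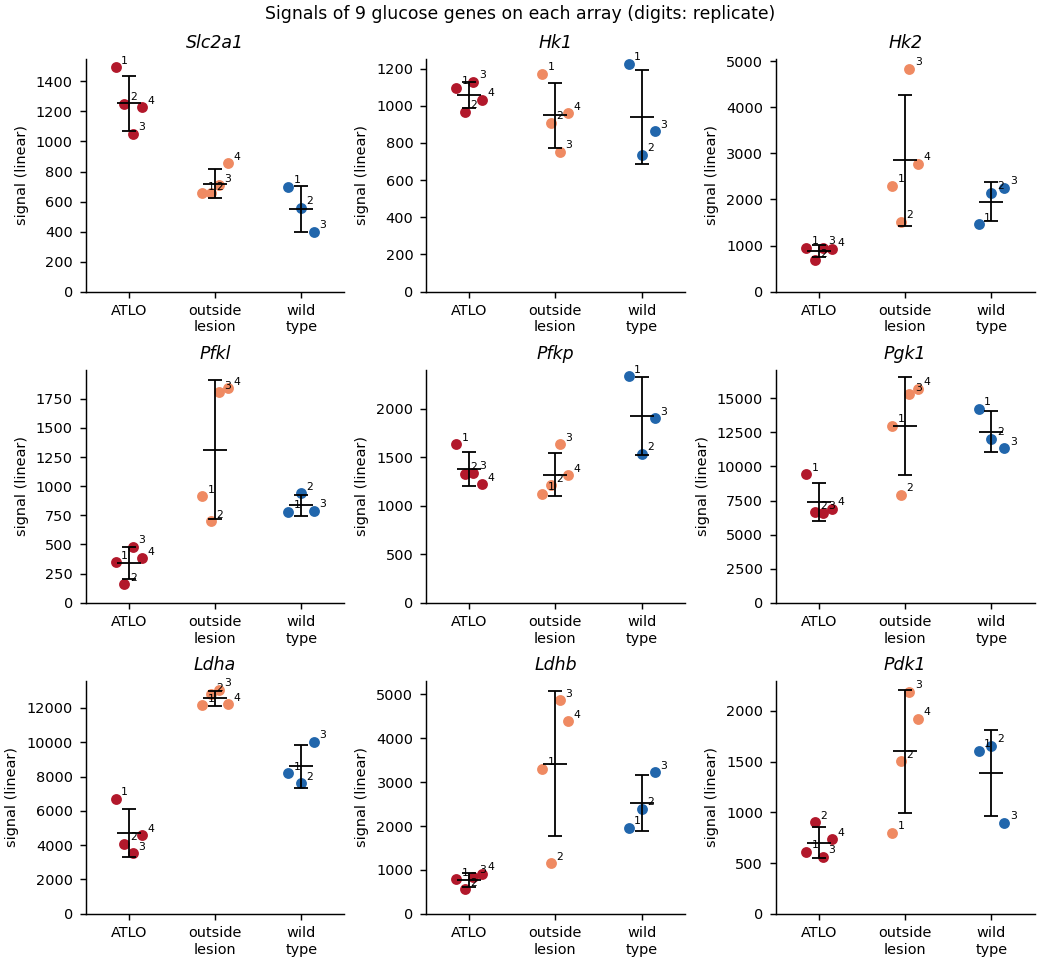
Linear signals of the brightest tested probe set of each of the 9 genes, with a point per array numbered by replicate and the mean ± SD of each group. ATLO points lie above all others for Slc2a1 and below all others for Hk2, Pfkl, Ldha and Ldhb, and the groups overlap for Hk1.

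Phosphofructokinase is a tetramer of liver (Pfkl), platelet (Pfkp) and muscle (Pfkm) subunits. Pfkl (1439148_a_at) had signals of 345, 158, 480.1 and 381 in ATLO arrays, 912, 699, 1806 and 1842 in outside-lesion arrays and 779, 941 and 790.2 in wild-type arrays. ATLO arrays were again the lowest of all without overlap. The log2 change was -1.93 ± 0.35 against outside-lesion arrays (3.82-fold lower, adjusted p = 0.00102) and -1.40 ± 0.38 against wild type (2.64-fold lower, adjusted p = 0.0163). The second Pfkl probe set (1450269_a_at) fell as well, by 1.20 (adjusted p = 4.26e-04) and by 0.90 (adjusted p = 0.00738). The change of the first probe set against wild type was not called without a filter on dim probe sets (adjusted p = 0.0633) or without wild-type replicate 2 (0.0546). Pfkp (1416069_at) had signals of 1631.5, 1331, 1339 and 1220.3 in ATLO arrays, 1123, 1211, 1634 and 1312 in outside-lesion arrays and 2336, 1537 and 1901 in wild-type arrays. ATLO and outside-lesion arrays overlapped, and the wild-type range reached highest. A second Pfkp probe set was too dim to be tested. The change was 0.07 against outside-lesion arrays (95% interval -0.29 to 0.43, adjusted p = 0.783), and its sign turned to -0.05 with equal array medians and -3.43e-04 with quantile normalization. Against wild type Pfkp was not called (-0.47 ± 0.18, adjusted p = 0.0711), but without wild-type replicate 2 it was (-0.62, adjusted p = 0.0420). Pfkm, which is not one of the 10 genes, was lower in ATLO arrays by both comparisons, at -0.58 ± 0.15 (adjusted p = 0.0101) and -0.63 ± 0.16 (adjusted p = 0.0127).

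Pgk1, phosphoglycerate kinase, is the X-linked enzyme that makes the first ATP of glycolysis. Its brightest probe set (1438640_x_at) had signals of 9420, 6649.5, 6592 and 6902 in ATLO arrays, 12973, 7906, 15285 and 15701 in outside-lesion arrays and 14240, 12041 and 11344.5 in wild-type arrays. Outside-lesion replicate 2 lay below ATLO replicate 1, so those groups overlapped, while all ATLO arrays lay below wild type. Pgk1 was 1.71-fold lower in ATLO than in outside-lesion arrays (log2 change -0.78 ± 0.22, adjusted p = 0.0166) and 1.71-fold lower than in wild type (-0.77 ± 0.24, adjusted p = 0.0302). The other 2 probe sets changed by -0.92 and -0.89 against outside-lesion arrays, both called, and by -1.08 (adjusted p = 0.00425) and -0.60 (adjusted p = 0.125) against wild type. Affymetrix gives the ending _x_at to probe sets that share probes with other sequences, and Pgk1 has processed copies in the genome, so the brightest probe set may read more than 1 transcript. The change against outside-lesion arrays was not called with quantile normalization (-0.52, adjusted p = 0.0678), with the actin covariate (-0.63, adjusted p = 0.155), without outside-lesion replicate 3 (-0.68, adjusted p = 0.0508) or without replicate 4 (-0.67, adjusted p = 0.0552). The change against wild type was lost in 7 of 19 alternatives, among them each wild-type replicate left out (adjusted p = 0.113, 0.0670 and 0.0570 without replicates 1, 2 and 3), ATLO replicates 2, 3 and 4 left out (0.0571, 0.0685 and 0.0686) and no filter (0.0656).

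Lactate dehydrogenase is a tetramer of A and B subunits, of which A prevails in glycolytic tissue and B in oxidative tissue such as heart. Ldha (1419737_a_at) had signals of 6712, 4089, 3513 and 4568 in ATLO arrays, 12156, 12796, 13070 and 12213 in outside-lesion arrays and 8189, 7595 and 10015.5 in wild-type arrays. The 3 groups did not overlap at all, with ATLO lowest and outside-lesion highest. Ldha was 2.74-fold lower in ATLO than in outside-lesion arrays (log2 change -1.45 ± 0.19, adjusted p = 9.88e-05) and 1.86-fold lower than in wild type (-0.90 ± 0.21, adjusted p = 0.00677). The gap of 0.56 ± 0.21 between outside-lesion and wild-type arrays was not called (adjusted p = 0.144). Ldhb (1416183_a_at) had signals of 785, 553, 836 and 912 in ATLO arrays, 3299, 1146, 4862 and 4382 in outside-lesion arrays and 1965.5, 2386 and 3228 in wild-type arrays. ATLO arrays lay below all others, and outside-lesion replicate 2 lay below the rest of its group. Ldhb was 3.95-fold lower in ATLO than in outside-lesion arrays (log2 change -1.98 ± 0.37, adjusted p = 0.00111) and 3.26-fold lower than in wild type (-1.71 ± 0.40, adjusted p = 0.00713). All 4 Ldhb probe sets were called in both comparisons, the other 3 at -2.61, -2.40 and -2.37 against outside-lesion arrays and -1.81, -1.92 and -1.48 against wild type. The last 2 of each series end in _x_at, so the 4 may not be independent readings. The calls of Ldha and Ldhb held in these 2 comparisons in each of 20 and 19 alternatives.

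Pdk1 encodes a kinase that switches off pyruvate dehydrogenase. Its brighter probe set (1423747_a_at) had signals of 609, 903, 559.7 and 734 in ATLO arrays, 799, 1505, 2189.9 and 1924 in outside-lesion arrays and 1606, 1659 and 899 in wild-type arrays. ATLO replicate 2 lay above the lowest array of each other group, so both comparisons overlapped. Pdk1 was 2.18-fold lower in ATLO than in outside-lesion arrays (log2 change -1.12 ± 0.30, adjusted p = 0.0108) and 1.94-fold lower than in wild type (-0.96 ± 0.32, adjusted p = 0.0409). The second probe set (1423748_at) was called too, at -0.69 (adjusted p = 0.0371) and -1.03 (adjusted p = 0.00941). The change of the first against wild type was lost in 7 of 19 alternatives. These were no filter (adjusted p = 0.111), no intensity trend (0.0598), wild-type replicates 1 and 2 left out (0.138 and 0.137) and ATLO replicates 1, 3 and 4 left out (0.0877, 0.0921 and 0.0659).

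Whether the isoforms of a family changed unequally was read from the log2 difference of their probe sets within each array. Only changes of this difference between groups carry meaning, since different probes have different brightness. Hk1 minus Hk2 was 0.22, 0.50, 0.25 and 0.17 in ATLO arrays, -0.97, -0.73, -2.69 and -1.53 in outside-lesion arrays and -0.26, -1.54 and -1.38 in wild-type arrays. All ATLO arrays lay above all others, with a shift of 1.77 against outside-lesion and 1.35 against wild-type arrays. Pfkp minus Pfkl was 2.24, 3.07, 1.48 and 1.68 in ATLO arrays, 0.30, 0.79, -0.14 and -0.49 in outside-lesion arrays and 1.58, 0.71 and 1.27 in wild-type arrays. It shifted by 2.00 against outside-lesion arrays without overlap and by 0.93 against wild-type arrays with overlap. Ldha minus Ldhb was 3.10, 2.89, 2.07 and 2.32 in ATLO arrays, 1.88, 3.48, 1.43 and 1.48 in outside-lesion arrays and 2.06, 1.67 and 1.63 in wild-type arrays. Its shift was 0.53 against outside-lesion arrays with overlap and 0.81 against wild type, where the lowest ATLO array (2.07) lay just above the highest wild-type array (2.06), and outside-lesion replicate 2 had the highest difference of all 11 arrays. In exact two-sided permutation tests over arrays both shifts of Hk1 minus Hk2 and that of Pfkp minus Pfkl against outside-lesion arrays had p = 0.0286, the smallest these designs allow, and adjusted p = 0.0857 over 9 tests. Ldha minus Ldhb against wild type, also without overlap, had an exact p = 0.0571 (adjusted p = 0.129). The other 5 had p between 0.0857 and 0.886, and none of the 9 passed after adjustment, which needs at least 6 of the 9 tests to reach the smallest p.

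**Figure D3:**
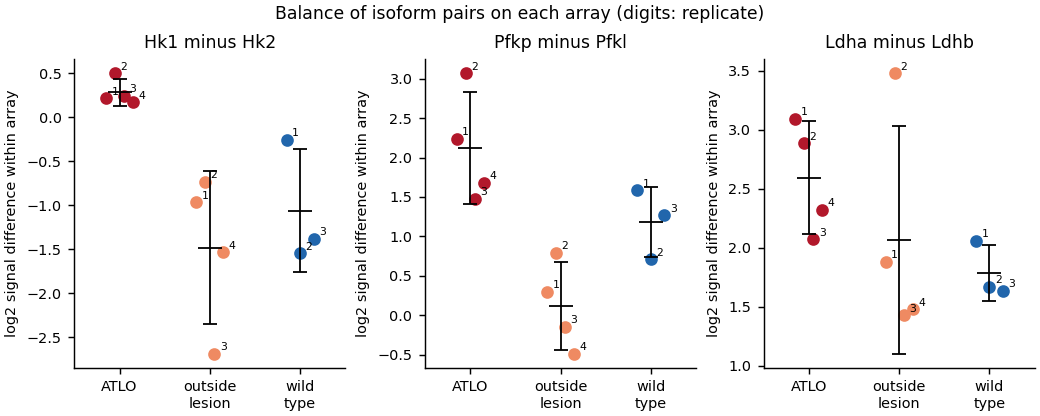
Log2 difference between the probe sets of the hexokinases, phosphofructokinases and lactate dehydrogenases within each array, with a point per array numbered by replicate and the mean ± SD of each group. ATLO points lie above all others for Hk1 minus Hk2 (0.17 to 0.50) and above the outside-lesion points for Pfkp minus Pfkl, and for Ldha minus Ldhb the outside-lesion points span those of both other groups.

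The rest of the pathway was read from lists of other genes. For comparison, 19.8% of all genes were called higher and 14.9% lower against outside-lesion arrays, and 13.4% and 14.0% against wild type. Of 4 other tested glucose transporters 1 rose and 2 fell in ATLO against outside-lesion arrays. Slc2a4 encodes GLUT4, the insulin-dependent transporter of fat and muscle. It had signals of 712, 418, 755 and 601 in ATLO arrays, 1969.6, 2592, 3822 and 2488 in outside-lesion arrays and 2062, 2296 and 2389 in wild-type arrays. All ATLO arrays were below all others, and the log2 change was -2.12 ± 0.22 (adjusted p = 2.2e-05) against outside-lesion and -1.89 ± 0.23 (adjusted p = 1.72e-04) against wild-type arrays. Slc2a3, or GLUT3, a high-affinity transporter of leukocytes and neurons, was higher than in outside-lesion arrays (1.05 ± 0.34, adjusted p = 0.0290), while another of its probe sets was not called (0.92, adjusted p = 0.0759). Neither was called against wild type, at 0.035 (adjusted p = 0.955) and 0.50 (adjusted p = 0.380). Slc2a5, a fructose transporter, had the largest fall of the list against wild type (-2.49 ± 0.46, adjusted p = 0.00208), where 0 rose and 2 fell. Of 10 other glycolytic enzymes 0 rose and 5 fell in each comparison of ATLO arrays, with medians of -0.52 and -0.57. Aldoa, an aldolase, fell most against outside-lesion arrays, with signals of 4614 to 8935 against 16030 to 21372 (-1.51 ± 0.20, adjusted p = 1.13e-04). Its probe sets also end in _x_at. Pklr, a pyruvate kinase, fell most against wild type (-1.25 ± 0.34, adjusted p = 0.0157), though a second probe set was not called (-0.53, adjusted p = 0.236). The first was dim as well, at 56.8 to 72 in ATLO arrays. Pfkfb3, which makes the activator of phosphofructokinase and was the single tested gene of its list, fell against both (-1.36 ± 0.22, adjusted p = 3.96e-04, and -0.74 ± 0.23, adjusted p = 0.0326). Gapdh had no tested probe set with 1 symbol and was not analysed here.

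Pyruvate and lactate handling, the list of transporters and dehydrogenase subunits downstream of glycolysis, had 1 gene higher and 10 lower among 11 tested against outside-lesion arrays (median -1.79), and 0 higher and 9 lower against wild type (median -1.22). The shares of all genes called were 19.8% higher and 14.9% lower, and 13.4% and 14.0%. Pdk4, the kinase isoform of fasting and of fat and muscle, had signals of 408, 307.5, 475 and 601 in ATLO arrays, 8130, 992, 7899.8 and 7561 in outside-lesion arrays and 3421, 3807 and 5387 in wild-type arrays. Outside-lesion replicate 2 stood far below the rest of its group but above every ATLO array. The log2 change was -3.43 ± 0.54 (adjusted p = 3.32e-04) against outside-lesion and -3.25 ± 0.58 (adjusted p = 0.00161) against wild-type arrays. Pdk3 moved the other way, with signals of 122 to 320 in ATLO arrays and 15.5 to 83.5 in outside-lesion arrays, where 2 arrays were at the floor of 35.1 (1.91 ± 0.43, adjusted p = 0.00440). It was not called against wild type (0.997 ± 0.47, adjusted p = 0.131). Pdk2, a further kinase of the family, was named after its values were seen and was lower in ATLO arrays (-1.60 ± 0.20 against outside-lesion arrays, adjusted p = 6.27e-05, and -0.90 ± 0.21 against wild type, adjusted p = 0.00747). Of the 4 kinases, Pdk1, Pdk2 and Pdk4 were thus lower and Pdk3 higher in ATLO than in outside-lesion arrays. Between outside-lesion and wild-type arrays 0 genes of these lists were called by their brightest probe set, while 1 of the other Aldoa probe sets was (0.95 ± 0.24, adjusted p = 0.0458). In that comparison 1.40% of all genes were called higher and 1.68% lower.

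**Figure D4:**
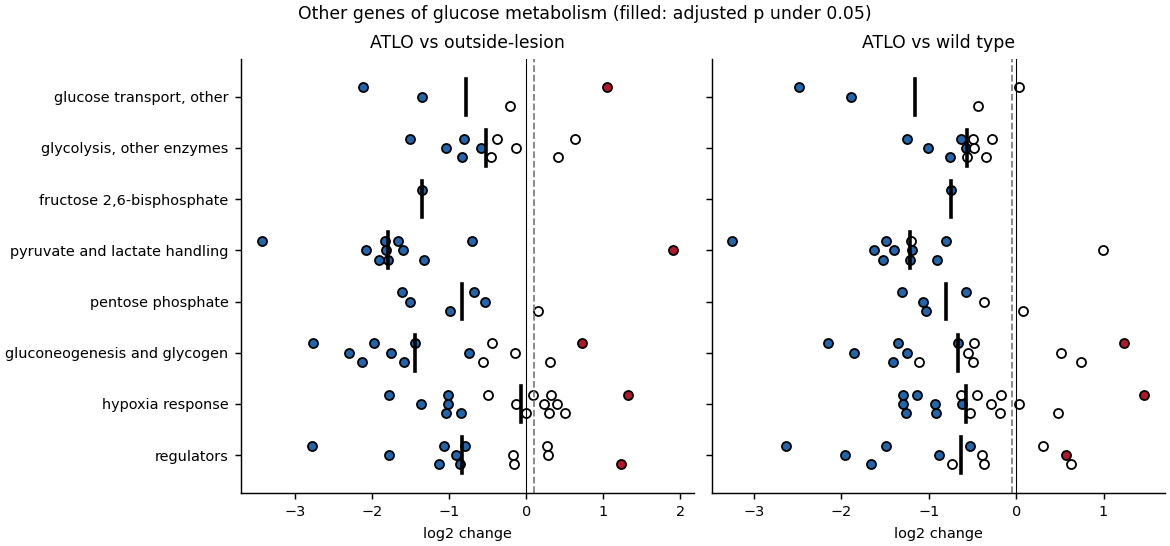
Log2 changes of the tested genes of each pathway list in ATLO against outside-lesion arrays and in ATLO against wild-type arrays, with a point per gene, called genes filled, a bar at the median of each list and a dashed line at the median of all genes. Most points of pyruvate and lactate handling lie left of 0 (medians -1.79 and -1.22), and the hypoxia response list lies on both sides.

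The hypoxia response list, 16 tested genes that include HIF subunits, their hydroxylases and HIF targets, had calls in both directions. Against outside-lesion arrays 1 rose and 6 fell (median -0.07), and against wild type 1 rose and 7 fell (median -0.58). For all genes the shares were 19.8% higher and 14.9% lower, and 13.4% and 14.0%. Hif1a, the oxygen-regulated subunit of HIF-1, which is controlled mainly as a protein, was the gene that rose. Its signals were 3833, 3825, 2343 and 3893 in ATLO arrays, 1587.5, 1582, 1038 and 1294 in outside-lesion arrays and 1132, 1494 and 1109.9 in wild-type arrays. ATLO arrays lay above all others, with a log2 change of 1.33 ± 0.20 (adjusted p = 2.45e-04) and 1.46 ± 0.22 (adjusted p = 4.84e-04), and a second probe set gave 1.02 and 0.88, both called. Bnip3, a mitophagy receptor and HIF target, had the largest fall against outside-lesion arrays, from 6064 to 8085 there to 1468 to 2255 in ATLO arrays (-1.78 ± 0.17, adjusted p = 1.81e-05). Adm, the vasodilator peptide adrenomedullin, had the largest fall against wild type (-1.30 ± 0.32, adjusted p = 0.0103). Ddit4, a stress-induced inhibitor of mTORC1, was lower in outside-lesion than in wild-type arrays (-1.36 ± 0.33, adjusted p = 0.0448). Among 12 regulators 1 rose and 7 fell against outside-lesion arrays, and 1 rose and 6 fell against wild type. Myc, a transcription factor that drives glycolytic genes in dividing cells, rose from 62.4 to 124 in outside-lesion arrays to 160.3 to 297.5 in ATLO arrays (1.23 ± 0.27, adjusted p = 0.00361). Ppargc1a, a coactivator of mitochondrial genes in brown fat, had signals of 47.0 to 53.6 in ATLO arrays, not far above the floor of 35.1, and 129 to 741 in outside-lesion arrays. By its brightest probe set it fell most in both comparisons (-2.77 ± 0.50, adjusted p = 9.62e-04, and -2.63 ± 0.54, adjusted p = 0.00371). Its other tested probe sets were called too, at -2.76, -2.35 and -2.23 against outside-lesion arrays and only -1.65, -1.58 and -1.73 against wild type. Mlxip, a glucose-sensing factor, was the regulator called higher against wild type (0.58 ± 0.19, adjusted p = 0.0380).

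Markers of several cell types also differed between the groups. Of 7 tested brown adipocyte markers 6 were lower in ATLO than in outside-lesion arrays and 0 higher, and their summed signal was 3051, 1675, 5639 and 5349 in ATLO arrays, 85675, 7247, 84292 and 75611 in outside-lesion arrays and 16594, 28536 and 47017.5 in wild-type arrays. Outside-lesion replicate 2 had a lower sum than the rest of its group. Ucp1, the uncoupling protein that defines brown fat, was at 143 there, against 20513 to 26624 in the others. Of the other markers, Elovl3 (246) and Dio2 (302) were not the lowest of their group in that array. Of 6 white adipocyte markers 5 were lower, and their sum ranged from 26617 to 75628 in ATLO, 96354 to 168803 in outside-lesion and 61800 to 73959 in wild-type arrays. Of 9 macrophage markers 8 were higher (40093 to 66240, 13947 to 24498 and 17404 to 25219), as were all 6 tested B cell markers (5398 to 16589, 773 to 1893 and 748 to 5728) and all 6 T cell markers. Of 8 smooth muscle markers 2 were lower against outside-lesion and 6 against wild-type arrays, and of 3 tested skeletal muscle markers 0 were called. Against outside-lesion arrays 7 of 8 plasma cell, 2 of 4 neutrophil and 6 of 7 fibroblast markers were also higher, and 4 of 7 endothelial markers lower. Of 5 Schwann cell markers 1 was higher and 1 lower, and 0 erythroid and 0 neuron markers were called. The marker counts stand beside 19.8% of all genes called higher and 14.9% lower against outside-lesion arrays, and 13.4% and 14.0% against wild type. The part of these cell types in the changes of the glucose genes was not tested, and fewer cells of a type and less RNA per cell cannot be told apart in bulk tissue.

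Outside-lesion replicate 2 was low in brown but not in white adipocyte markers, whose sum there (127715) was the second highest of the 11 arrays, and its smooth muscle (64875) and endothelial (11201) sums were the highest. In that array Ldha was at 12796, as high as in the 3 arrays rich in brown fat signal, and Pdk1 at 1505 lay within their range. Ldhb at 1146, Hk2 at 1513, Pfkl at 699, Pgk1 at 7906 and Pdk4 at 992 were each the lowest of their group. Without that array 1 gene was still called higher and 6 lower in ATLO than in outside-lesion adventitia, and Ldhb changed by -2.44, Hk2 by -1.86, Pfkl by -2.20, Pgk1 by -0.999 and Ldha by -1.45. Slc2a1 at 655 did not stand apart there. This is 1 array, and the cause of its differences from the rest of the group was not tested.

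**Figure D5:**
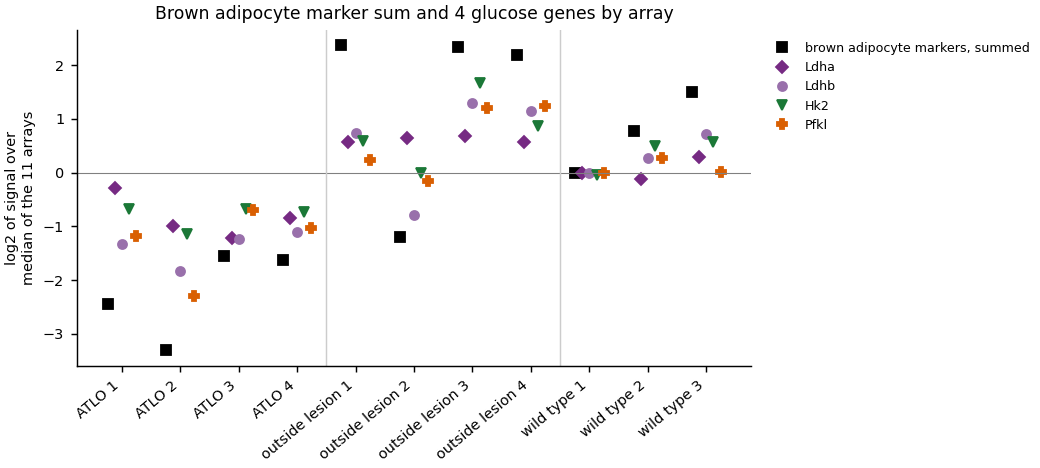
Summed signal of brown adipocyte markers and signals of Ldha, Ldhb, Hk2 and Pfkl in each of the 11 arrays, each as log2 over its median across arrays. Outside-lesion replicate 2 is the lowest of its group for the marker sum, Ldhb, Hk2 and Pfkl, and its Ldha lies within the range of the other outside-lesion arrays.

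The genotype labels were checked on Apoe, whose signal was 134 ± 31.1 in ATLO, 110 ± 67.0 in outside-lesion and 12417 ± 651 in wild-type arrays. The median signal of an array ranged from 151.5 to 191. Precision was limited by the small number of arrays in each group, and it differed between genes with the spread between arrays.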

How the data were processed

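The authors deposited linear signal intensities per probe set, made with GCOS 1.4 per the submitters' processing notes; the trimmed mean of each array was near 500, which shows scaling before deposit. How probes were summarised: not given in the sources used here. Of 22690 probe sets, 64 controls were left out, and the platform annotation gave 1 gene symbol to 20380 of the rest, several to 691 and none to 1555. Intensities below 35.1, the 20th percentile of the table, were set to that floor before taking log2, which understates folds of dim probe sets. Testing required 3 arrays or more with a signal above the array's 40th percentile (14988 probe sets).

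Group means were estimated in limma 3.58.1 (R 4.3.3) from the 11 arrays together, with an intensity-dependent prior and Benjamini-Hochberg adjustment over the tested probe sets (threshold 0.05). The script was tested on simulated data. Each gene was represented by its tested probe set of highest mean log2 signal. Signal errors are SD and those of log2 changes SE. Isoform differences were compared with exact two-sided permutation tests over arrays, adjusted over 9 tests; both pairs with Hk3 could not be formed.

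The genes, pathway lists and markers were chosen with earlier results of these data known. Named were the 10 genes, Slc2a4, Pfkm, Pdk4 and Apoe, in each list and comparison the called genes with the largest rise and fall, and for each of the 10 genes the 3 genes with the closest profile. Ucp1, Pdk2 and second probe sets fall outside this rule. The replicate numbers are not stated to pair arrays, so the main fit did not treat them as pairs. Deviations of same-numbered arrays of different groups had correlations between -0.18 and 0.27, which cannot exclude a pairing. Alternatives were other scalings, floors, filters and variance settings, fits of 2 groups alone, a replicate block, array weights, the actin ratio as a covariate, averaged probe sets and leaving out each array.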

Additional observations from a re-analysis of the deposited data

Results flagged for a closer look

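In groups of 4 arrays, an array was singled out where its gap to the nearest other array, divided by the range of the group, was above Dixon's critical value of 0.829. Of 84 groups examined 7 held such an array, and chance alone gives about 1 in 20. ATLO replicate 2 had the lowest Hk2 signal of its group, 683, where the others lay between 916 and 950.4. ATLO replicate 1 had the highest Pgk1 signal, 9420, against 6592 to 6902 in the others. Outside-lesion replicate 2 had the lowest signal of the Ldhb probe set 1434499_a_at, 1204.5, against 4700.5 to 5248 in the others. The same array had the lowest Pdk4 signal, 992, against 7561 to 8130. Outside-lesion replicate 1 had the highest Bnip3 signal, 8085, against 6064 to 6295. ATLO replicate 3 had the lowest Hif1a signal, 2343, against 3825 to 3893, and ATLO replicate 2 the highest Mlxip signal, 642, against 478 to 497. The causes were not tested.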

How the results depend on the processing

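Among the 9 genes in 3 comparisons, 475 values under alternatives kept their direction and side of the threshold, 24 lost their call, 1 gained one and 22 turned sign, all 22 uncalled. In the check of the replicate numbers 5 of 11 arrays correlated best with an array of their own number, and the replicate block changed no call of the 9 genes but turned the sign of Pgk1 between outside-lesion and wild-type arrays (-0.036). In that comparison Pgk1 was also -0.44 with quantile normalization and -0.10 with the actin covariate, Hk1 -0.043 and Ldhb -0.053 with the actin covariate, and Slc2a1 -0.12 and Pdk1 -0.087 with probe sets averaged. With an array left out Pgk1 ranged there from -0.10 to 0.23, Hk1 from -0.13 to 0.23 and Pdk1 from -0.12 to 0.47. Ldha minus Ldhb was -0.059 with probe sets averaged, -0.014 with quantile normalization and between -0.19 and 0.49 with an array left out. Pfkp in ATLO against outside-lesion arrays was -3.43e-04 with quantile normalization, -0.047 with equal medians, -0.0096 with array weights and between -0.012 and 0.18 with an array left out. The actin covariate left 0 of the 9 genes called higher against outside-lesion arrays, and 2552 probe sets called in place of 4777. Against wild type 2 of the 9 genes were called lower without a filter, and 3 to 5 with an array left out. Between outside-lesion and wild-type arrays 489 probe sets were called, 301 without a filter, 202 with these groups only, 189 with the replicate block, 1530 with array weights, 248 without the trend, 86 with the actin covariate, 206 with probe sets averaged and 21 to 886 with an array left out. Equal medians shifted the median of all probe sets by -0.12 between ATLO and outside-lesion arrays and by 0.17 between outside-lesion and wild-type arrays, and moved the share of higher calls from 56.3% to 44.1% and from 52.8% to 87.3%. Quantile normalization gave 68.8% for the latter. These causes were not tested.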

Other observations

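Pathways that branch off glycolysis were read as well. Here too the shares of all genes were 19.8% higher and 14.9% lower against outside-lesion arrays, and 13.4% and 14.0% against wild type. Of 6 tested pentose phosphate genes 0 rose and 5 fell in ATLO against outside-lesion arrays (median log2 change -0.83), and 4 fell against wild type (median -0.80). Tkt, a transketolase, had signals of 15859, 6611, 13596 and 14398 in ATLO arrays and 32997 to 38290 in outside-lesion arrays (-1.61 ± 0.25, limma adjusted p = 3.23e-04). Pgd, which makes NADPH, fell most against wild type (-1.31 ± 0.34, adjusted p = 0.0121), by a probe set ending in _x_at. The Pgd probe set without that ending was not called there (-0.66, adjusted p = 0.148). Of 13 genes of gluconeogenesis and glycogen 1 rose and 8 fell against outside-lesion arrays (median -1.44), and 1 rose and 6 fell against wild type (median -0.66). Pck1, the cytosolic phosphoenolpyruvate carboxykinase that serves glyceroneogenesis in fat, had signals of 2996.5, 901, 1122 and 1724 in ATLO arrays, 12735, 8369.9, 10469 and 9983 in outside-lesion arrays and 3043, 3240 and 5808 in wild-type arrays. Its 3 groups did not overlap, at -2.76 ± 0.32 (adjusted p = 4.72e-05) for ATLO against outside-lesion and 1.41 ± 0.35 (adjusted p = 0.0458) for outside-lesion against wild-type arrays. Pck2, the mitochondrial form, was higher in ATLO arrays, 524 to 649 against 306 to 390 in outside-lesion arrays (0.72 ± 0.16, adjusted p = 0.00306) and 227 to 290.2 in wild-type arrays (1.23 ± 0.17, adjusted p = 3.11e-04), though a second probe set was not called (0.11 and -0.63). Gbe1, the glycogen branching enzyme, fell most of the list against wild type (-2.15 ± 0.22, adjusted p = 6.13e-05).

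The genes whose centred log2 signals over the 11 arrays lay closest to each glucose gene are given as a description, by root mean square difference. Only tested genes whose SD over the arrays reached a set share of the glucose gene's own SD were ranked. For Slc2a1, whose own SD was 0.57, these were Abcg1 (0.18), Pck2 (0.18) and Bola2 (0.21). Ldha (SD 0.70) was followed most closely by Acad11 (0.15), Prdx3 (0.16) and Dhrs7b (0.17), and Ldhb (SD 1.11) by Slc4a4 (0.19), Dlst (0.20) and Etfa (0.21). For Hk2 (SD 0.85) they were Mtres1 (0.22), Afg1l (0.23) and Hagh (0.23), and for Pfkl (SD 1.04) Bckdha (0.29), Slc25a35 (0.30) and Dlat (0.30). Pgk1 (SD 0.49) lay closest to Nfatc2 (0.15), Pgap4 (0.19) and Ndufaf1 (0.19), and Pdk1 (SD 0.70) to Ank (0.26), Lactb2 (0.28) and Echdc1 (0.30). Hk1 (SD 0.25) lay closest to Bst2, Scamp5 and Appl1 (0.12 to 0.13), and Pfkp (SD 0.32) to Usp20, Septin10 and Itfg1 (0.15 to 0.17). All of these share the 11 arrays and their scaling.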
